A study of Mus musculus with 6 samples.

Results

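The 32 genes described here encode the enzymes and carriers that take a mouse embryo's glucose to lactate, and the enzymes of the pentose phosphate pathway that branches from it. They were chosen by name for their place in these pathways, with earlier results of these data known. The list holds 2 glucose transporters, 15 genes of upper and lower glycolysis and 2 of the enzymes that set fructose 2,6-bisphosphate. It also holds 4 genes of lactate production and export, 3 of the oxidative and 4 of the non-oxidative pentose phosphate arm, and 2 phosphoglucomutases. All 32 were found among the 49993 genes of the count table, and 30 of them were among the 14301 genes with enough counts to be tested. Aldoc and Slc16a3 had too few.

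RNA-seq libraries were made from mouse blastocysts that either grew in culture from the zygote stage (in vitro group, n = 3 libraries) or were left to develop inside the mother (in vivo group, n = 3 libraries). All females, of a strain not given in the labels used here, were superovulated by 2 injections 48 h apart, the first with 10 IU of PMSG (a gonadotrophin from pregnant mares) and the next with 10 IU of hCG (human chorionic gonadotrophin), and mated naturally. Embryos of both groups were thus fertilised in vivo after superovulation. For culture, zygotes were recovered from oviducts 19 to 21 h after hCG, freed of cumulus cells with hyaluronidase and grown in KSOM medium under oil at 37 °C and 5% CO2. Blastocysts of the in vivo group were flushed from the uterus on day 3.5. Embryos of both groups were picked by stage and appearance, so the groups are matched by morphology and not by age. The labels also call each sample a single inner cell mass and the cells embryonic stem cells, whereas the design text speaks of whole blastocysts, and no label says whether replicates are separate litters. P-values therefore measure the spread between these libraries, which may in part be technical.

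Glycolysis splits glucose into pyruvate and yields ATP, and lactate dehydrogenase then turns pyruvate into lactate, which leaves the cell through monocarboxylate transporters. The pentose phosphate pathway draws off glucose 6-phosphate to make NADPH in its oxidative arm and ribose 5-phosphate for nucleotides in its non-oxidative arm. Early mouse embryos depend on pyruvate and lactate, and take up and use more glucose as they approach the blastocyst stage.

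The 6 libraries held 6918288 to 17643429 counts, and 3 counts, the limit that a count of 0 allows, came to 0.215 to 0.525 CPM (counts relative to the scaled library total). Ribosomal 18S RNA took 35.8% to 40.4% of counts in the in vitro libraries, against 16.7%, 22.2% and 41.7% in in vivo libraries 1, 2 and 3. In vivo library 3 stood apart from the other two of its group (Spearman's rho over genes 0.786 and 0.793, against 0.942 between libraries 1 and 2), and the main results that turn on it are given with and without it below. The in vitro libraries were no closer to each other, at 0.789, 0.824 and 0.848. In vitro library 2 was nearer to in vivo libraries 1 and 2 (0.873 and 0.857) than to its own group (0.848 and 0.824), so libraries did not sort cleanly by group. Trophectoderm markers were present in every library, with summed levels of 1576 to 2621 CPM in vitro against 872 to 1691 CPM in vivo. Trophectoderm is the outer layer of the blastocyst, so these levels go against a pure inner cell mass. Of the 14 trophectoderm markers tested, 12 had higher means in vitro, 4 of them with an unadjusted p below 0.05. Primitive endoderm markers summed to 804 to 1652 CPM in vitro and 425 to 1061 CPM in vivo, with 12 of 13 positive, 4 higher and 1 lower at an unadjusted p below 0.05, and a median log2 fold change of 0.91 against 0.65 for trophectoderm. Of the 12 epiblast markers, 5 were positive and 7 negative, and they summed to 676 to 1433 CPM in vitro and 843 to 1027 CPM in vivo. Of the cumulus markers, 6 of 11 had 0 counts in every library, Amh and Fshr among them, and the list summed to 1.22 to 4.17 CPM in vitro and 1.93 to 3.35 CPM in vivo. Markers of uterine and oviduct epithelium summed to 0.260 to 6.88 CPM in vitro and 6.62 to 15.4 CPM in vivo, with Ltf at 0 throughout. Muc1 had 0.175, 2.63 and 0.130 CPM in vitro and 10.3, 4.63 and 15.4 CPM in vivo, without overlap. It was the only tested gene of that list, and was lower in vitro at an unadjusted p below 0.05 (edgeR). Whether its RNA came from cells of the mother or of the embryo was not tested. Blood markers summed to 0 to 3.64 CPM in vitro and 0.625 to 5.37 CPM in vivo, with 5 of 9 at 0 throughout. The part of lineage make-up and ribosomal RNA share in the differences below was not tested, and in whole embryos fewer cells of a type and less RNA per cell cannot be told apart.

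Promoters of Hk2, Pgk1 and Ldha are shown because these are the genes of the pathway that any of the other tools, described below, called higher in vitro. Each window runs from 250 bases before to 50 bases after an annotated start, 5′ to 3′ on the gene's own strand, from RefSeq on GRCm38.p6. For Hk2 and Pgk1 this is the outer end of the gene, whereas the Ldha window lies at a start inside the annotated span of the gene, whose outer end is not shown. Capitals mark every ACGTG and GCGTG, on either strand (as CACGT and CACGC where the match lies on the other strand), the core letters of the sites that hypoxia-inducible factors bind. CACGTG, the E-box bound by MYC-family and USF factors, holds ACGTG on both strands and was counted separately.
Hk2, hexokinase 2, chr6:82774405-82774704 (minus strand): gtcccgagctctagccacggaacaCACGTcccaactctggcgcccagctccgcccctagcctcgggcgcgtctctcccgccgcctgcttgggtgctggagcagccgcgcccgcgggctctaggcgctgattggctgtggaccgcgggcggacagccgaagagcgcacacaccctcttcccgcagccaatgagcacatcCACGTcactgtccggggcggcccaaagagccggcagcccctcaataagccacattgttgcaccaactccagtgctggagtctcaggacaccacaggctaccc
Pgk1, phosphoglycerate kinase 1, chrX:106186850-106187149 (plus strand): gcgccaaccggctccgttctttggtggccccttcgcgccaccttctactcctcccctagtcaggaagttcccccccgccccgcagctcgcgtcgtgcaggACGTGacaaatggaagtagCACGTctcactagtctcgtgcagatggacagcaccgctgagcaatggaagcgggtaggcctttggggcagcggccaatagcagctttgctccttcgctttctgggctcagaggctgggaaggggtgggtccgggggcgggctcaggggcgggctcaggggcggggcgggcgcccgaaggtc
Ldha, lactate dehydrogenase A, chr7:46845554-46845853 (plus strand): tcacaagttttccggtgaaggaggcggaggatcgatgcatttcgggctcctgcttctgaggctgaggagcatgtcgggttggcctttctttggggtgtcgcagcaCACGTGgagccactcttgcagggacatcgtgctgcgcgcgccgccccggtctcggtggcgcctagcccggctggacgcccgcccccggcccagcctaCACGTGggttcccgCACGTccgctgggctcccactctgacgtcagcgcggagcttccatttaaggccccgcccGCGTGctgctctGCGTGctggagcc

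The Hk2 and Pgk1 windows held 2 ACGTG each, and the Ldha window held 5 ACGTG, 4 of which are the paired strands of 2 CACGTG, with 2 GCGTG besides. The window of another start of Ldha, at chr7:46846832-46847131, had 0 ACGTG and 2 GCGTG. Of the 31 genes of the pathway with a promoter in the RefSeq table, 18 (58.1%) held ACGTG in at least 1 window, against 21.8% of all 27025 genes and 23.2% of protein-coding genes. GCGTG stood in 67.7% of the pathway's genes, against 35.2% of all genes and 41.4% of coding genes, and CACGTG in 16.1%, against 8.09% and 8.91%. A gene with more windows has more room for a match, and the 31 genes had 46 windows where all 27025 had 32851. Per window, ACGTG stood in 47.8% against 19.6%, GCGTG in 58.7% against 32.4% and CACGTG in 10.9% against 7.15%. Base composition differed as well, with a median GC content of 60.7% for the pathway's windows against 56.3% for coding genes. These letter matches describe the windows and are not measured binding sites.

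The genes of the pathway differed widely in level. Per kilobase of exon (CPM per kb on the union of annotated exons, averaged over all 6 libraries), the most abundant transcripts were those of triosephosphate isomerase Tpi1 (66.6), aldolase A Aldoa (63.8), 6-phosphogluconate dehydrogenase Pgd (59.1), phosphoglycerate mutase Pgam1 (50.3), transaldolase Taldo1 (49.1) and Hk2 (48.6). Aldoc was the lowest at 0.221 CPM per kb. By group, Tpi1 averaged 73.9 ± 18.1 CPM per kb in vitro and 59.3 ± 32.6 in vivo, and Aldoa 55.0 ± 15.5 in vitro and 72.5 ± 7.54 in vivo (SD, n = 3 each). Hk2 averaged 70.9 ± 15.2 CPM per kb in vitro and 26.3 ± 5.89 in vivo. Summed over 19 genes of glycolysis and lactate, the level was 375 ± 63.6 CPM per kb in vitro and 345 ± 59.0 in vivo. The oxidative pentose arm summed to 89.9 ± 19.1 CPM per kb in vitro and 80.3 ± 14.4 in vivo, and the non-oxidative arm to 100.2 ± 32.5 in vitro and 78.1 ± 20.7 in vivo. Each of these 3 sums differed between groups by less than the SD within the in vitro group.

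**Figure D1:**
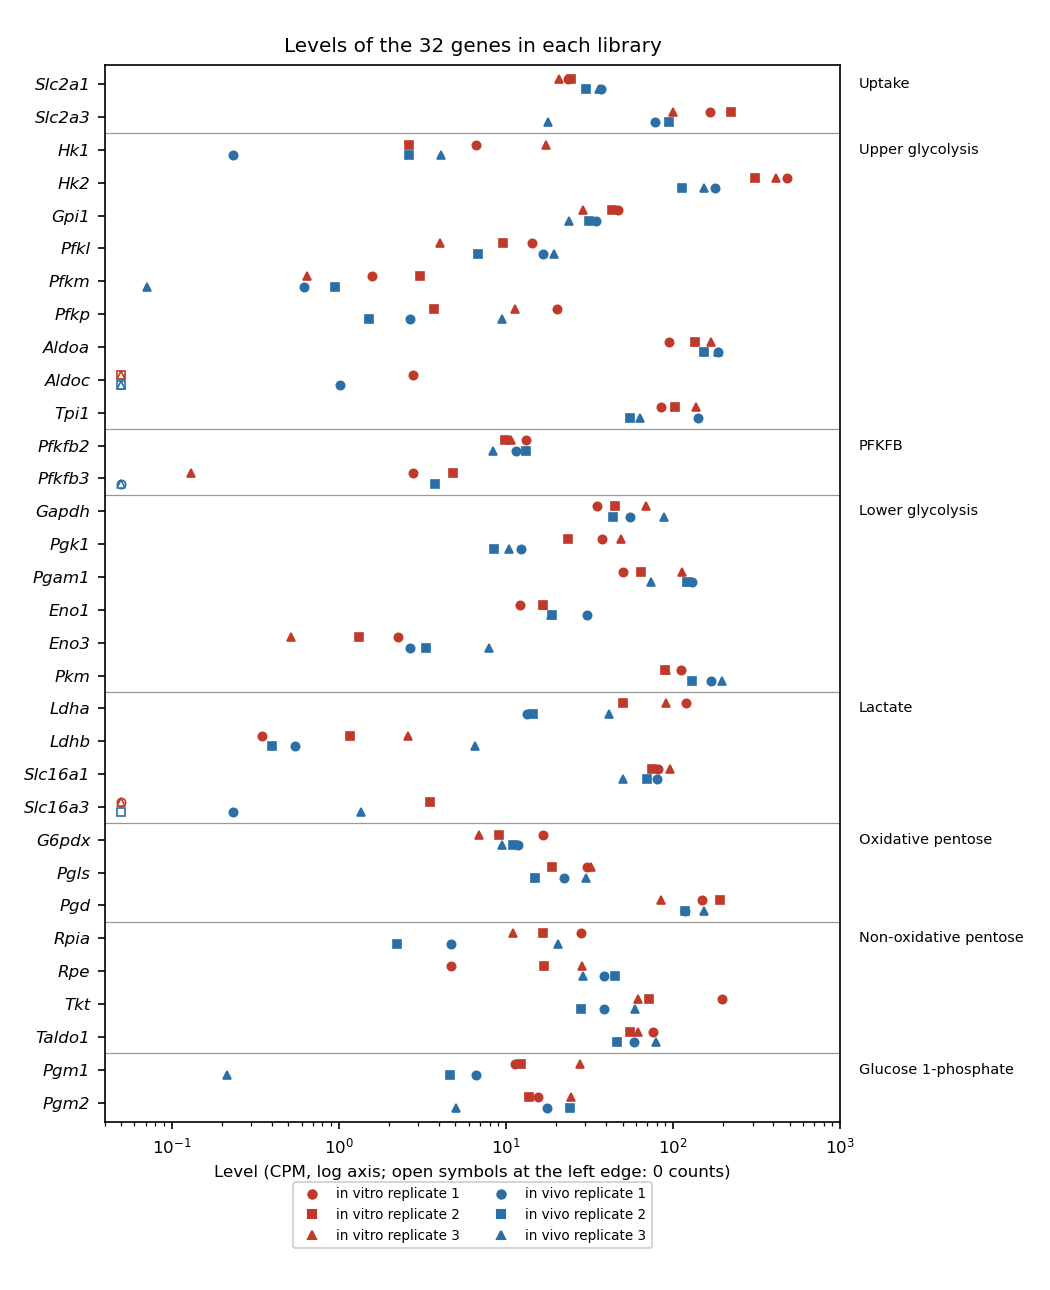
Level of each of the 32 genes in each library, in CPM on a log axis, ordered by role, with in vitro libraries (red) drawn above in vivo libraries (blue) and open symbols for 0 counts. Hk2, Pgk1, Ldha and Slc2a3 show all 3 in vitro libraries to the right of all 3 in vivo libraries, and Slc2a1 and Pkm the reverse.

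Across the contrast of in vitro with in vivo blastocysts, edgeR's quasi-likelihood test called 0 of the 32 genes at an adjusted p below 0.05, and 0 of all 14301 genes (0%). An unadjusted p below 0.05 was reached by 6 of the 30 tested genes, against 10.2% of all genes. Of these 6, 5 were higher in vitro (Slc2a3, Hk2, Pgk1, Ldha and Tkt), against a background of 5.11%, and 1 was lower (Pkm), against 5.08%. The 3 in vitro libraries lay wholly above or wholly below the 3 in vivo libraries for 11 of the 30 genes, against 19.3% of all genes. They lay above for 6 (Slc2a3, Hk2, Pgk1, Ldha, Tkt and Pgm1), against 9.27%, and below for 5 (Slc2a1, Eno1, Eno3, Pkm and Rpe), against 10.0%. The log2 fold change was positive for 20 and negative for 10 of the 30 genes, with a median of 0.24, where the median of all genes was -0.0058. The 32 genes were chosen with earlier results of these data known, so these shares are descriptions and not independent comparisons. Without in vivo library 1, 3 of the genes had an unadjusted p below 0.05, against 7.25% of all genes in that fit. Without in vivo library 3, 7 of 31 tested genes did, against 14.2% of all genes. In that fit 15 of the 31 had groups without overlap, against 37.7% of all genes.

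The other tools called a few of these genes. DESeq2 called 3, each higher in vitro: Pgk1 (adjusted p = 0.0131), Hk2 (0.0151) and Ldha (0.0494). Over all genes it called 3.00% of the 15775 genes with an adjusted p, and 1.65% as higher in vitro. The test limma-voom with library quality weights called Ldha (adjusted p = 0.0422), with 0.441% of all genes called higher in vitro. edgeR without its filter on low counts called Hk2 (adjusted p = 0.0388) and Ldha (0.00772), with 0.656% of 27882 genes called higher. None of these 3 tools called a gene of the pathway lower in vitro. Over all genes, DESeq2 called 213 of 15775 lower, limma-voom 39 of 14301 and edgeR without its filter 208 of 27882. Lower calls were thus rare over all genes as well, and their absence here says little about the pathway. With 1 library left out, DESeq2 still called Hk2 in 4 of 6 fits, with adjusted p-values of 0.171 without in vivo library 2 and 0.118 without in vitro library 1 in the others. Pgk1 was called in 2 of 6 such fits, the ones without in vivo library 3 (adjusted p = 0.0181) and without in vitro library 2 (0.00424). Ldha was called in the same 2 fits, with adjusted p-values of 4.71e-05 without in vivo library 3 and 0.0248 without in vitro library 2. The share of all genes called in these 6 fits was not counted, so these calls have no background beside them. The adjustment differed between fits. A DESeq2 p of 0.00399 (Tkt) became 0.0588 without in vivo library 3, whereas one of 0.00438 (Pgk1) became 0.164 without in vivo library 2.

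**Figure D2:**
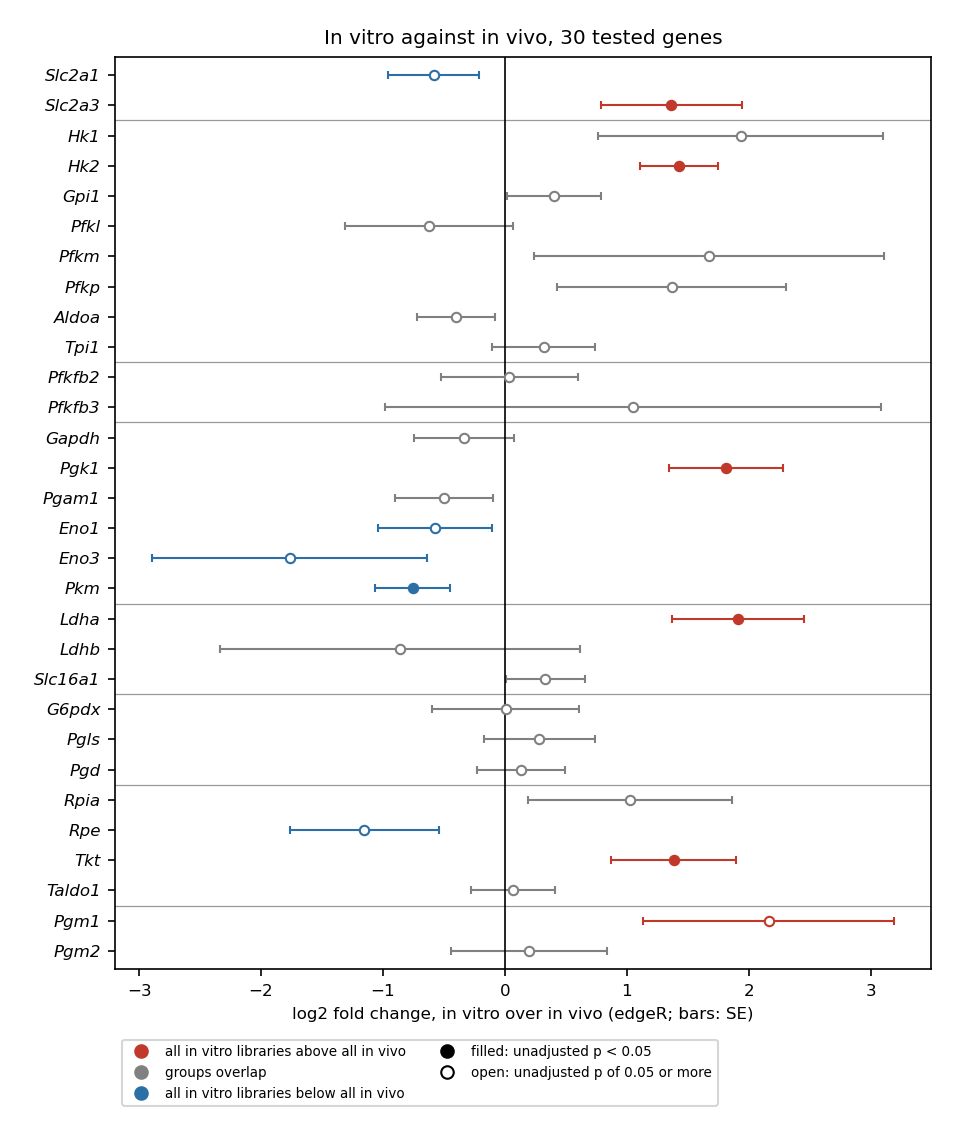
The log2 fold change of in vitro over in vivo blastocysts for the 30 tested genes from edgeR, with bars of 1 SE, coloured by whether the libraries of the groups overlap and filled where the unadjusted p is below 0.05. Upper glycolysis runs mostly to the right of 0, with 6 of 8 tested genes positive (Tpi1 turns negative with library totals alone in place of TMM scaling), and lower glycolysis mostly to the left, with 5 of 6 negative and Pgk1 at 1.81 as the exception.

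Glucose enters through transporters, and the transcripts of the 2 studied here stood on opposite sides. Slc2a3 encodes GLUT3, the high-affinity glucose transporter of the trophectoderm's outer face, and spans chr6:122727809-122802363. It had 168, 222 and 100.4 CPM in the in vitro libraries, against 77.7, 94.9 and 17.8 CPM in the in vivo libraries. All in vitro libraries were above all in vivo libraries, though the lowest in vitro and the highest in vivo value lay close together. On the log2 scale the fold change was 1.36 ± 0.58 (SE), with an adjusted p of 0.474 by edgeR, and 0.93 without in vivo library 3. Slc2a1, at chr4:119108745-119137330, encodes GLUT1, which serves basal glucose uptake. It had 23.4, 24.5 and 20.7 CPM in vitro, against 37.0, 30.01 and 36.0 CPM in vivo. The in vitro values were all lower and closely grouped, at a log2 fold change of -0.59 ± 0.37 and an adjusted p of 0.631 (edgeR).

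The balance between the 2 transporters can be read within each library, free of the scaling between libraries. Per kilobase, Slc2a3 made up 77.3%, 81.2% and 69.7% of the pair in vitro, against 49.9%, 60.0% and 19.0% in vivo. The means were 76.0% ± 5.81 in vitro and 43.0% ± 21.4 in vivo (SD, n = 3 each), without overlap. The difference of 33.05 percentage points had p = 0.1 in an exact two-sided permutation test, the smallest p that 3 libraries against 3 can give, and an adjusted p of 0.4 over the 8 isozyme pairs compared. Without in vivo library 3 the difference was 21.1 points. The 95% Wilson intervals of these shares, which cover counting error only, were 66.0% to 73.2% for the lowest in vitro library and 57.2% to 62.8% for the highest in vivo library.

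Hexokinase commits glucose to the cell by phosphorylating it. Hk2, at chr6:82725025-82774454, encodes an isozyme that predominates in embryonic and other growing cells. It had 481, 310.4 and 413 CPM in vitro, against 180, 114 and 154 CPM in vivo. The lowest in vitro library lay well above the highest in vivo library. The means were 401 ± 85.9 CPM in vitro and 149 ± 33.3 CPM in vivo, and the log2 fold change was 1.43 ± 0.32 with an unadjusted p of 0.00142 and an adjusted p of 0.306 by edgeR. With each library left out in turn the fold change stayed between 1.26 and 1.57. Its sister isozyme Hk1 had 6.65, 2.63 and 17.4 CPM in vitro and 0.234, 2.63 and 4.08 CPM in vivo, with in vitro library 2 at the level of in vivo library 2. The log2 fold change of Hk1 was 1.94 ± 1.17, but 2.63 without in vivo library 3 and 0.99 without in vitro library 3 (edgeR). Hk2 made up 97.8% ± 1.82 of the pair in vitro and 98.2% ± 1.41 in vivo, so the share of Hk2 differed by only -0.448 percentage points (exact permutation p = 0.8).

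In upper glycolysis, the steps after hexokinase showed overlapping groups. Glucose 6-phosphate isomerase Gpi1 (log2 fold change 0.40 ± 0.38), triosephosphate isomerase Tpi1 (0.32 ± 0.42) and Aldoa (-0.40 ± 0.32) had fold changes close to their SE. The 3 phosphofructokinase genes, whose products catalyse the main rate-limiting step, had mean levels under 20 CPM in both groups. The liver-type gene Pfkl had 14.3, 9.58 and 4.04 CPM in vitro and 16.7, 6.86 and 19.5 CPM in vivo. The platelet-type gene Pfkp had 20.3, 3.73 and 11.3 CPM in vitro and 2.66, 1.52 and 9.45 CPM in vivo, and the muscle-type gene Pfkm did not exceed 3.07 CPM in any library. Of the exon bases of Pfkm, 8.33% also lie in exons of Senp1 on the other strand, a gene with 1059 counts, so the Pfkm level is uncertain. Their log2 fold changes were -0.62 ± 0.69 (Pfkl), 1.37 ± 0.94 (Pfkp) and 1.67 ± 1.44 (Pfkm), none with an unadjusted p below 0.05. That of Pfkp was 2.49 without in vivo library 3 and 0.73 without in vitro library 1 (edgeR). Pfkfb2 and Pfkfb3 encode the enzymes that make and break fructose 2,6-bisphosphate, the strongest activator of phosphofructokinase. Pfkfb2 had 13.3, 9.88 and 10.8 CPM in vitro and 11.5, 13.2 and 8.38 CPM in vivo, a log2 fold change of 0.04 ± 0.56. Pfkfb3 had 2.80, 4.83 and 0.130 CPM in vitro, the last from 1 count, and 0, 3.75 and 0 CPM in vivo, so that 2 libraries in vitro and 1 in vivo were above the counting limit. Aldoc, the brain-type aldolase, had counts only in library 1 of each group, at 2.80 CPM in vitro and 1.02 CPM in vivo.

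In lower glycolysis, Pgk1 and Pkm stood on opposite sides. Phosphoglycerate kinase 1 makes the first ATP of the pathway, and Pgk1 lies at chrX:106187100-106203699. It had 37.8, 23.7 and 48.7 CPM in vitro, against 12.3, 8.54 and 10.5 CPM in vivo. Every in vitro library was above every in vivo library, and the in vivo libraries lay close together. This gave a log2 fold change of 1.81 ± 0.46, with an unadjusted p of 0.00336 and an adjusted p of 0.321 by edgeR. Pgk1 is X-linked, and Xist, the RNA of the inactive X, had 56, 7494 and 16 counts in in vitro libraries 1, 2 and 3 and 8, 25 and 341 counts in in vivo libraries 1, 2 and 3. The library with 7494 Xist counts had the lowest Pgk1 of the in vitro group but was above every in vivo library, and in vivo library 3, with the most Xist of its group, had the middle Pgk1 value. The part of embryo sex in this difference was not tested.

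Pkm, at chr9:59656576-59679372, encodes pyruvate kinase M, the ATP-yielding last step to pyruvate. It had 112, 89.6 and 90.7 CPM in vitro, against 169, 130.1 and 195 CPM in vivo. All in vitro libraries were below all in vivo libraries, at a log2 fold change of -0.76 ± 0.31, an unadjusted p of 0.0340 and an adjusted p of 0.455 (edgeR). Leaving out each library in turn gave fold changes of -0.91 to -0.61. Enolase 1, Eno1, had 12.2, 16.8 and 16.8 CPM in vitro and 30.5, 18.9 and 18.8 CPM in vivo, which do not overlap but nearly touch (log2 fold change -0.57 ± 0.47, adjusted p = 0.725 by edgeR). The muscle enolase Eno3 had 2.27, 1.32 and 0.521 CPM in vitro and 2.66, 3.35 and 7.95 CPM in vivo. Its log2 fold change was -1.76 ± 1.13 with an adjusted p of 0.632 (edgeR), and was -1.13 without in vivo library 3. Of the exon bases of Eno3, 22.9% also lie in exons of Pfn1 on the other strand, a gene with 23481 counts, and the library kit does not mark strand, so the Eno3 level is uncertain. Groups overlapped for Gapdh (-0.34 ± 0.41), a gene often used as a loading reference, and for Pgam1 (-0.50 ± 0.40).

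Several of these genes have near-identical copies that were counted as rows of their own, and reads may be split between a gene and its copy. Pgk1-rs7, a processed copy of Pgk1, held 262, 444 and 391 counts in vitro and 469, 198 and 104 counts in vivo. The copies held 58.5% of the counts of Pgk1 and its copies together, 61.5% for Eno1 (Eno1b), 54.8% for Pgam1, 47.6% for Ldhb, 34.3% for Gapdh, 10.9% for Aldoa and 2.91% for Ldha. The Aldoa share takes in copies of the same name only, and is 40.7% with the retrogenes Aldoart1 (5076 counts) and Aldoart2 (891 counts), which were not added in the fit below. With copies added in, a choice made after the data were seen, Pgk1 had 83.6, 56.3 and 99.7 CPM in vitro against 49.0, 24.3 and 17.97 CPM in vivo. The groups still did not overlap, and the log2 fold change was 1.39 ± 0.46, with an adjusted p of 0.398 by edgeR. Eno1 with Eno1b moved to -0.94 ± 0.43 (adjusted p = 0.501), while Ldha stayed at 1.87 ± 0.52 (adjusted p = 0.342, both edgeR).

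**Figure D3:**
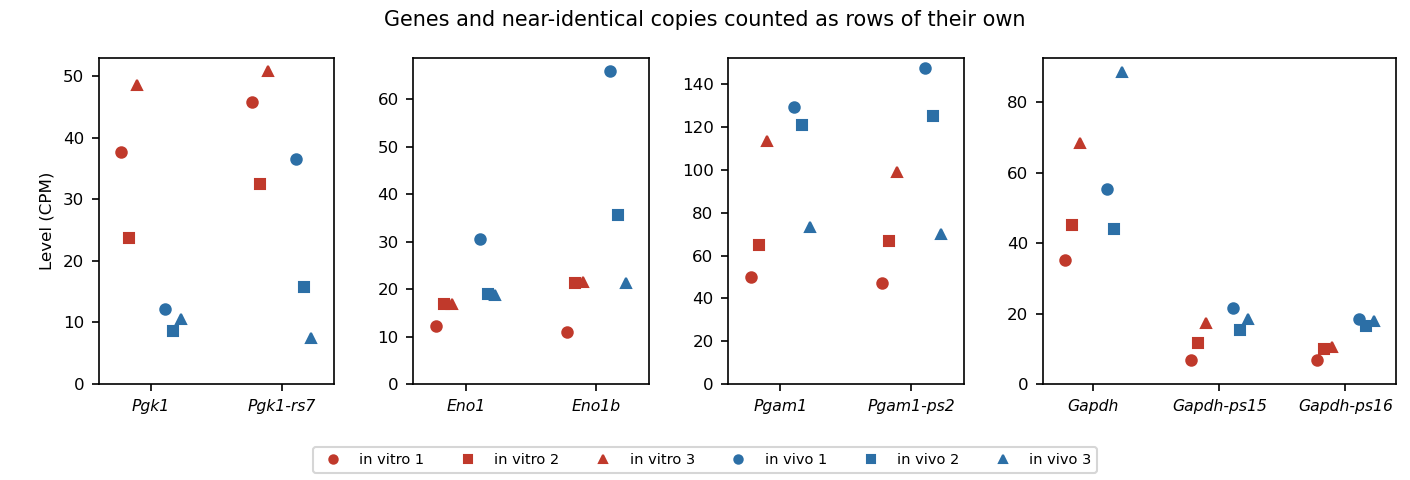
Levels in CPM (linear axis from 0) of 4 glycolytic genes beside their near-identical copies in each library, in vitro libraries in red and in vivo libraries in blue. Pgk1-rs7 overlaps between groups where Pgk1 does not, and Eno1b and Pgam1-ps2 reach levels like those of Eno1 and Pgam1.

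Lactate dehydrogenase regenerates NAD+ by turning pyruvate into lactate, and its A subunit favours that direction. Ldha, at chr7:46842274-46855627, had 120.0, 50.4 and 90.9 CPM in vitro, against 13.4, 14.5 and 41.4 CPM in vivo. The groups did not overlap, and in vivo library 3 was the nearest to the in vitro values. In edgeR this was a log2 fold change of 1.91 ± 0.54, with an unadjusted p of 0.00647 and an adjusted p of 0.361. It was 2.64 without in vivo library 3 and at least 1.61 without any other library. Ldhb, the subunit that favours lactate use, had 0.350, 1.17 and 2.60 CPM in vitro and 0.547, 0.399 and 6.59 CPM in vivo, and its groups overlapped (-0.86 ± 1.48). Ldha made up 98.8%, 91.3% and 89.5% of the pair per kilobase in vitro and 85.7%, 89.9% and 60.5% in vivo (difference 14.5 points, exact permutation p = 0.2, adjusted 0.533). The difference was 5.41 points without in vivo library 3, and 4.99 points in the share of counts in place of the per-kilobase level.

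Lactate leaves or enters through monocarboxylate transporters. Slc16a1, the widely expressed MCT1, had 81.5, 75.1 and 96.7 CPM in vitro and 80.5, 70.5 and 50.3 CPM in vivo, at 0.33 ± 0.33 on the log2 scale. Slc16a3, the MCT4 of strongly glycolytic cells, had counts in in vitro library 2 alone (0, 3.51 and 0 CPM) and in in vivo libraries 1 and 3 (0.234, 0 and 1.36 CPM). Slc16a1 thus carried nearly all of the pair's transcript, with Slc16a3 at a mean share of 1.85% in vitro and 1.22% in vivo. Of the exon bases of Slc16a3, 10.6% also lie in exons of Csnk1d on the other strand, a gene with 1911 counts, so its few counts are uncertain.

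The oxidative pentose arm makes NADPH. Its gateway enzyme, glucose 6-phosphate dehydrogenase, is encoded by G6pdx on chromosome X, which had 16.6, 9.07 and 6.90 CPM in vitro and 11.8, 11.1 and 9.52 CPM in vivo. The in vitro values spread on both sides of the in vivo values, and the log2 fold change was 0.01 ± 0.61. The lactonase gene Pgls (0.28 ± 0.46) and Pgd (0.13 ± 0.36), whose product makes the second NADPH, also overlapped. Pgd was far higher per kilobase than G6pdx in both groups, at 61.8 against 4.65 CPM per kb in vitro and 56.5 against 4.62 in vivo.

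The non-oxidative arm interconverts sugar phosphates and feeds back into glycolysis, and its genes did not go one way. Transketolase, Tkt, at chr14:30549131-30574724, had 197, 71.8 and 61.7 CPM in vitro against 38.7, 28.1 and 59.6 CPM in vivo. The groups do not overlap by a narrow margin, and in vitro library 1 was far above the rest. The log2 fold change was 1.38 ± 0.51 (unadjusted p = 0.0247, adjusted p = 0.425, edgeR), but 0.67 without in vitro library 1. Rpe, at chr1:66700797-66719805, encodes ribulose-phosphate 3-epimerase and had 4.72, 16.8 and 28.8 CPM in vitro against 38.5, 45.0 and 28.9 CPM in vivo. The third library of each group nearly met, at -1.15 ± 0.61 on the log2 scale with an adjusted p of 0.556 (edgeR). Of the exon bases of Rpe, 17.9% overlap Kansl1l on the other strand, which had 1851 counts. The isomerase gene Rpia had 28.2, 16.6 and 11.1 CPM in vitro and 4.69, 2.23 and 20.4 CPM in vivo, and overlapped through in vivo library 3. Its log2 fold change was 1.03 ± 0.84, and 0.56 to 2.42 with a library left out, the highest without in vivo library 3 and the lowest without in vivo library 2. DESeq2 called it higher in vitro in the fit without in vivo library 3 (log2 fold change 2.44, adjusted p = 0.0141). The share of all genes called in that fit was not counted. Taldo1 had 75.7, 55.1 and 61.6 CPM in vitro and 58.4, 46.5 and 78.8 CPM in vivo (0.07 ± 0.34).

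Phosphoglucomutases link glucose 6-phosphate with glucose 1-phosphate, the entry to glycogen, and PGM2 also acts on ribose phosphates. Pgm1, at chr4:99929451-99987294, had 11.4, 12.4 and 27.7 CPM in vitro against 6.64, 4.63 and 0.215 CPM in vivo, the last from 3 counts. All in vitro libraries were above all in vivo libraries, with a log2 fold change of 2.16 ± 1.03 (unadjusted p = 0.0645, adjusted p = 0.522, edgeR), and 1.61 without in vivo library 3. Pgm2, at chr5:64092919-64128355, had 15.6, 13.8 and 24.5 CPM in vitro and 17.6, 24.3 and 5.01 CPM in vivo (0.20 ± 0.64). Pgm2 made up 37.3%, 32.7% and 27.7% of the pair per kilobase in vitro and 53.6%, 69.5% and 91.0% in vivo, without overlap. The means were 32.6% ± 4.79 in vitro and 71.4% ± 18.8 in vivo, a difference of -38.8 points (exact permutation p = 0.1, the smallest possible, and 0.4 adjusted over the 8 pairs). Leaving out each library in turn, the difference ran from -47.7 to -29.0 points. Pgm1 also lies on an alternative contig, and how reads that match both places were counted is unknown, so its share is uncertain.

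**Figure D4:**
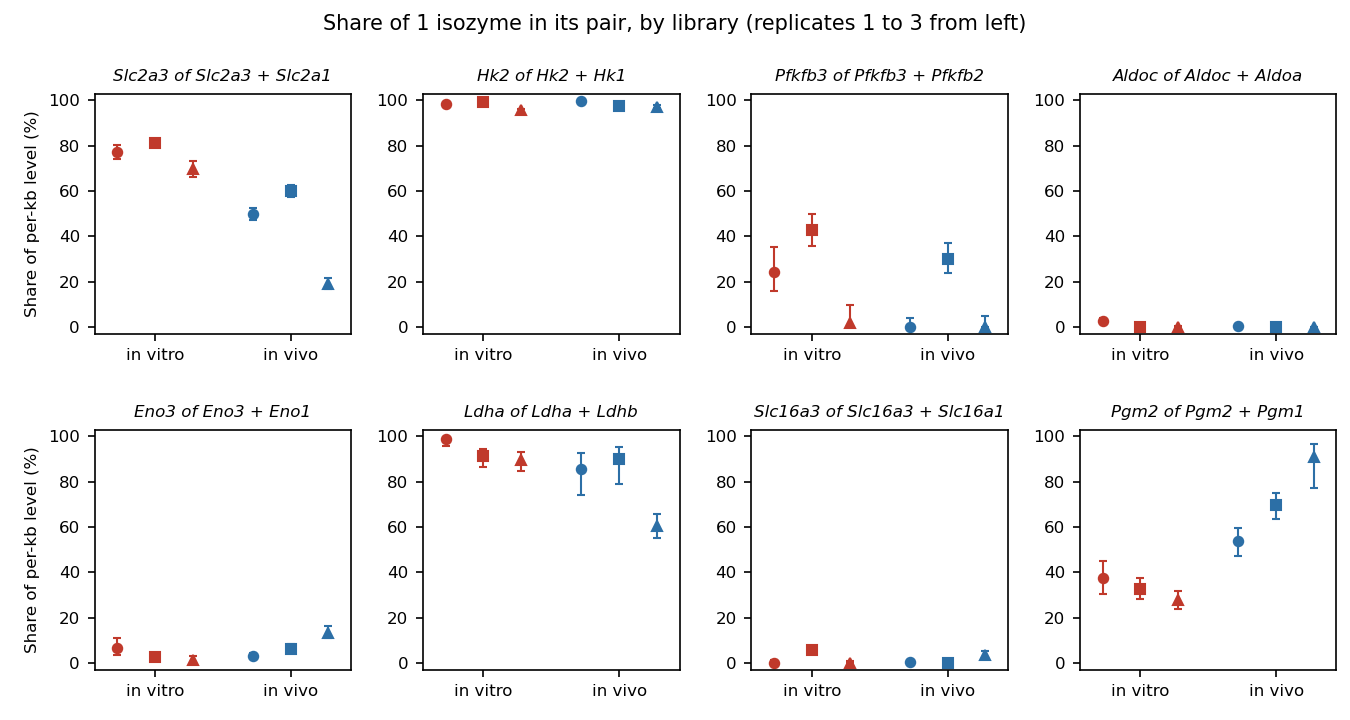
Share of 1 isozyme in the summed per-kilobase level of its pair (percent, axis 0 to 100) in each library, in vitro libraries (red) left of in vivo libraries (blue), with 95% Wilson intervals for counting error. Slc2a3 (69.7% to 81.2% in vitro, 19.0% to 60.0% in vivo) and Pgm2 (27.7% to 37.3% in vitro, 53.6% to 91.0% in vivo) are the pairs whose groups do not overlap, and Hk2 stays above 95% of its pair in every library.

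For the remaining pairs, Eno3 made up 3.41% ± 2.67 of the enolase pair in vitro and 7.51% ± 5.30 in vivo (exact permutation p = 0.3), a difference of -4.09 points that was -1.16 without in vivo library 3. Pfkfb3 made up 22.9% ± 20.4 of its pair in vitro and 10.0% ± 17.3 in vivo (p = 0.5, exact permutation), with 24.2%, 42.6% and 1.79% in the in vitro libraries and 0%, 30.04% and 0% in the in vivo libraries. Aldoc held 0.810% of the aldolase pair in vitro and 0.152% in vivo.

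**Figure D5:**
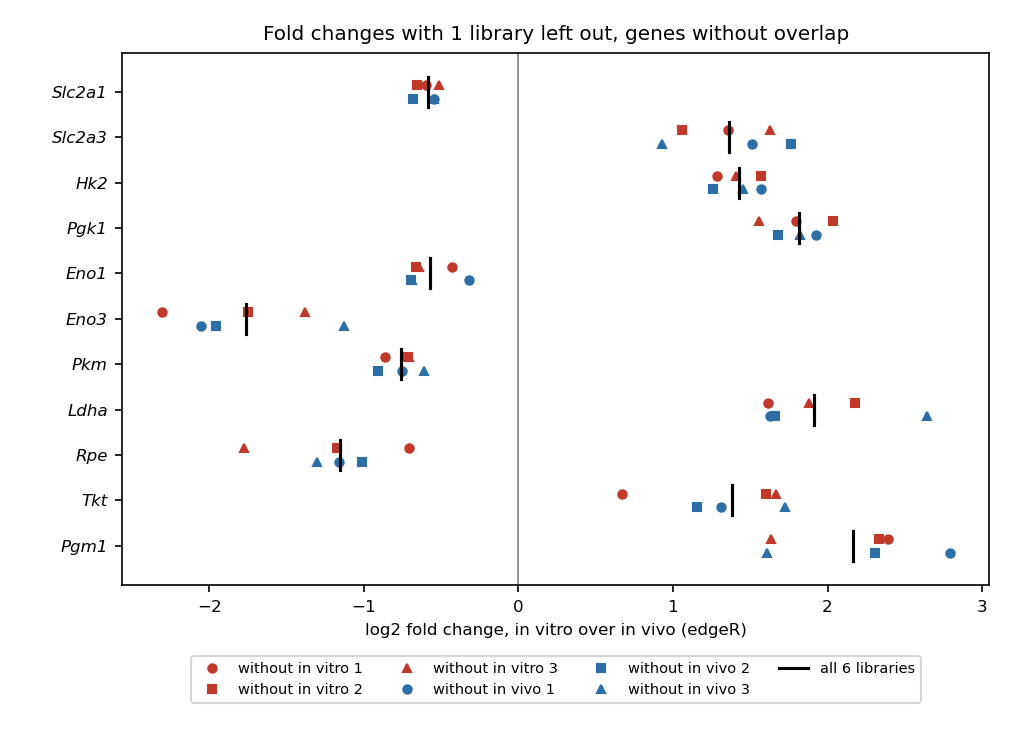
The log2 fold change (edgeR, in vitro over in vivo) of the 11 genes whose groups do not overlap, from all 6 libraries (black line) and with each library left out (red for an in vitro and blue for an in vivo library). No point crosses 0, which was all but fixed by choosing genes whose groups do not overlap, so only the sizes are informative. Hk2 runs from 1.26 to 1.57 and Pkm from -0.91 to -0.61, while Tkt drops to 0.67 without in vitro library 1.

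The scaling between libraries also bears on these genes. With library totals alone in place of TMM, the median log2 fold change of all genes was -0.31 and that of the 30 genes -0.10, with 12 positive and 18 negative. The groups of Slc2a3, Tkt, Eno1 and Rpe then overlapped and those of Aldoa no longer did, which left 8 genes without overlap, against 16.2% of all genes under that scaling. Hk2 was then at 1.07 ± 0.39, Pgk1 at 1.44 ± 0.51, Ldha at 1.72 ± 0.44 and Pkm at -1.05 ± 0.36.

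Other genes around the pathway were read from 6 further lists in the same edgeR fit, in which 0 genes were called. The counts of positive and negative fold changes are those under TMM scaling, and were not counted with library totals alone. Among other sugar and lactate transporters, 7 of 17 genes were tested, with 3 positive and 4 negative fold changes and a median of -0.27. Bsg encodes basigin, which carries MCT1 to the membrane, and had 179, 271 and 48.2 CPM in vitro and 363, 345 and 238 CPM in vivo (-0.92 ± 0.54). Emb encodes embigin, which also escorts monocarboxylate transporters, and had 57.2, 34.6 and 21.5 CPM in vitro and 20.7, 6.15 and 0 CPM in vivo, without overlap (2.08 ± 1.27). Slc2a8, which encodes GLUT8, a transporter known from mouse blastocysts, had 5.60, 21.0 and 0.130 CPM in vitro and 42.5, 19.2 and 45.2 CPM in vivo (-1.98 ± 1.10). None of these had an unadjusted p below 0.05.

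Among other glycolytic isozymes and control genes, 11 of 22 were tested, 4 positive and 7 negative, with 3 lower in vitro at an unadjusted p below 0.05 and a median of -0.47. These 3 were the aldolase retrogenes Aldoart2 (-2.49 ± 0.82) and Aldoart1 (-1.55 ± 0.53), and Eno1b (-1.19 ± 0.52). Aldoart1 had 28.7, 40.8 and 38.4 CPM in vitro and 158, 125 and 33.4 CPM in vivo, so that in vivo library 3 lay among the in vitro values. All 3 are close in sequence to Aldoa or Eno1, and reads may be shared.

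Among other genes of pentose and ribose metabolism 4 of 9 were tested, 2 positive and 2 negative. Tktl1, the X-linked transketolase-like gene, had 0 counts in every in vitro library against 25, 57 and 94 counts in vivo (1.95, 4.55 and 6.73 CPM). It had an unadjusted p of 0.00294 and an adjusted p of 0.321 by edgeR. With the libraries of each group pooled, the in vivo level was 40.4-fold above a floor of 3 counts over the in vitro group. That ratio leaves out the spread between libraries and is not a bound on the group difference. Rbks encodes ribokinase and had 0.525, 1.68 and 0 CPM in vitro and 2.73, 4.87 and 3.94 CPM in vivo, without overlap. The third gene named, Tktl2, had 5.77, 0.439 and 3.12 CPM in vitro and 0.547, 1.84 and 0 CPM in vivo.

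Of the genes of gluconeogenesis and glycogen, 13 of 18 were tested, 9 positive and 4 negative, with a median of 0.39. Fbp2 encodes the muscle-type fructose bisphosphatase, which runs against phosphofructokinase. It had 178, 312 and 170.1 CPM in vitro against 443, 442 and 335 CPM in vivo, without overlap (-0.89 ± 0.33, unadjusted p = 0.0260, adjusted p = 0.428, edgeR). Muscle glycogen phosphorylase, Pygm, had 1.57, 2.56 and 3.38 CPM in vitro and 0.234, 0.479 and 0 CPM in vivo, without overlap.

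In the hexosamine and other branches, 13 of 15 genes were tested, 9 positive and 4 negative, with a median of 0.39. Sord encodes sorbitol dehydrogenase of the polyol route and had 471, 332 and 776 CPM in vitro and 355, 199.8 and 222 CPM in vivo (1.02 ± 0.39, adjusted p = 0.435). Gnpnat1, of the hexosamine route to UDP-GlcNAc, had 59.8, 35.8 and 46.2 CPM in vitro and 68.1, 139.5 and 70.5 CPM in vivo, without overlap (-0.97 ± 0.40, adjusted p = 0.463, both edgeR). Pgp, which encodes a phosphatase that clears side products of glycolysis, averaged 49.4 ± 12.7 CPM in vitro and 80.4 ± 5.70 CPM in vivo, also without overlap.

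Pyruvate enters the mitochondrion through the pyruvate carrier and becomes acetyl-CoA through pyruvate dehydrogenase. Of the 13 genes of these complexes and their regulators 12 were tested, 5 positive and 7 negative, with a median of -0.07. Dlat, the acetyltransferase subunit, averaged 56.0 ± 20.7 CPM in vitro and 27.8 ± 6.75 CPM in vivo (1.01 ± 0.41, adjusted p = 0.461). The phosphatase gene Pdp2, whose product activates the complex, averaged 70.2 ± 9.13 CPM in vitro and 115 ± 19.3 CPM in vivo, without overlap (-0.71 ± 0.31, adjusted p = 0.478, both edgeR). Pdhb, of the dehydrogenase subunit, had a log2 fold change of -0.37 ± 0.30, also without overlap.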

How the data were processed

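What the authors deposited is a single table with a raw count for each gene and library, together with gene coordinates and lengths, in a layout like that of featureCounts. The aligner, the counter and whether strand was used in counting were not given in the sources used here. Per the submitters' processing notes, FastQC 0.11.2, DESeq2 and the build GRCm39 were used, but the coordinates of all 32 genes equal RefSeq on GRCm38.p6, so coordinates are given on that build. Per the labels' protocols, RNA was extracted with a microscale kit and libraries were made with a transposase-based kit, which does not mark strand.

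The deposited counts went unaltered into edgeR 4.0.16 (R 4.3.3): filtering by group, TMM scaling, robust quasi-likelihood in its legacy form, two-sided, with Benjamini-Hochberg adjustment over all genes and a threshold of 0.05. The common biological coefficient of variation was 0.727. CPM values use TMM-scaled totals. Fold changes are in vitro over in vivo. DESeq2 1.42.0, limma 3.58.1 and other settings were run beside it. The main edgeR fit, DESeq2 and limma-voom were first run on simulated data, and the other settings were not. Levels per kb use exon unions on primary chromosomes, since 6 genes (Hk2, Eno1, Eno3, Pgd, Rpe and Pgm1) also lie on alternative contigs, where the deposited length counts both. How reads that match both places were counted is unknown. The levels of these 6 genes, and the isozyme shares that use them, are uncertain to that extent. Unions take in every annotated transcript and can understate a level. Isozyme shares were compared by exact permutation tests (scipy 1.17.1). Totals of 6918288 to 17643429 counts set the precision. Molecules were not tagged, so PCR copies are counted too and each interval or floor covers counting error only. No pair of libraries was a duplicate: the closest pair had a chi-square per degree of freedom of 31.5 over 15224 genes.

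The 32 genes and the lists were chosen with earlier results of these data known. Values per library are given for genes with an unadjusted p below 0.05 or without overlap and for their isozyme partners, and up to 3 genes of smallest p are named from each other list, except 1 that is not reported here. Other genes given in detail were chosen after their values were seen.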

Additional observations from a re-analysis of the deposited data

How the results depend on the processing

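The number of genes called over the whole table was 0 with all scalings, the strict filter, the replicate block and each library left out, but 391 without a filter, 473 with DESeq2, 102 with limma-voom and 3 with the newer quasi-likelihood form of edgeR. Of the 32 genes, 2 were called without a filter, 3 with DESeq2 and 1 with limma-voom. The median log2 fold change of the 30 tested genes was -0.10 with library totals alone, against 0.24 as reported, and 0.18 to 0.33 with a library left out. Over single genes and alternatives, 442 of 475 fold changes kept their direction and side of the threshold, 6 passed a threshold and 27 turned sign. The turns fell on 10 genes, none of them among the 11 without overlap. For the fits with a library left out, this was all but fixed by the lack of overlap. The cause of the turns was not tested. With library totals alone, Pfkfb2 was at -0.34, Tpi1 at -0.10, Slc16a1 at -0.060, G6pdx at -0.36, Pgls at -0.0098, Pgd at -0.11, Taldo1 at -0.21 and Pgm2 at -0.28. With limma-voom, Pfkfb2 was at -0.17, Ldhb at 0.95, G6pdx at -0.19 and Pgm2 at -0.28. G6pdx was also at -0.025 without a filter, -0.0027 with the strict filter, -0.087 with the replicate block and -0.028 with the newer form. With a library left out, Pfkfb2 ran from -0.12 to 0.18, Gapdh from -0.64 to 0.0023, Ldhb from -1.68 to 1.53, G6pdx from -0.43 to 0.25, Pgd from -0.15 to 0.40, Taldo1 from -0.10 to 0.29 and Pgm2 from -0.22 to 0.65. Differences in isozyme share ran from -1.10 to 0.590 points for Hk2, -0.152 to 1.06 for Aldoc and -1.22 to 1.67 for Slc16a3. No other difference in share turned sign. The genes without overlap numbered 12 to 15 with a library left out, against 23.7% to 37.7% of all genes in those fits.

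Deviations of same-numbered libraries from their group means had correlations of -0.0986, 0.0960 and -0.0443. Those of differently numbered libraries ran from -0.0903 to 0.116. With 3 libraries per group, such values cannot tell whether the numbers mark pairs. With the replicate number as a block, 0 of the 32 genes were called and 5 had an unadjusted p below 0.05, against 8.12% of all genes in that fit. Adding the counts of near-identical copies was chosen after the data were seen. The low counts of Aldoc, Slc16a3, Pfkm, Pfkfb3 and Ldhb limit what can be said of them.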
